A study of Mus musculus with 116 samples.

Results

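The 31 genes described here encode subunits of the receptors through which cortical neurons respond to glutamate and GABA. They are a named list of 4 AMPA, 5 kainate and 6 NMDA receptor subunits, 6 metabotropic glutamate receptors, 8 GABA-A and 2 GABA-B receptor subunits, all found among the 53379 gene identifiers of the count tables. The list was applied as a measure of neuronal maturation to bulk Smart-Seq2 libraries of green cells sorted from mouse cortex. Of 116 libraries in the series 68 hold green cells, and the 55 of these with at least 1000000 uniquely aligned reads that make up at least 60% of all reads were used.

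Green cells were compared between 3 paradigms of mosaic analysis with double markers (MADM), which makes sparse cells of known genotype visible through recombination between a pair of chromosomes 7. In control-MADM (MADM7-GT/TG;Emx1-cre) all cells are Eed+/+. In Eed-MADM (MADM7-GT/TG,Eed;Emx1-cre) the sparse green cells are Eed-/- within heterozygous tissue, and in cKO-Eed-MADM (MADM7-GT,Eed/TG,Eed;Emx1-cre) the green cells are Eed-/- and so is the rest of the Cre-expressing lineage around them. Emx1-Cre acts in the progenitors of the dorsal telencephalon and their progeny, so cells that migrate in from elsewhere keep the unrecombined alleles. Green cells of all 3 paradigms carry both copies of chromosome 7 from the father. Chromosome 7 also holds the floxed Eed allele and 5 of the listed genes, Grik5, Grin2d, Grm5, Gabra5 and Gabrg3. For these genes, linked sequence differences between paradigms cannot be told apart from loss of Eed. Each library comes from pooled cortices of CD1 mice, given in the paper as a mixed C57BL/6 and CD1 background. For control-MADM, Eed-MADM and then cKO-Eed-MADM, the libraries used numbered 5, 8 and 4 at E12.5 (embryonic day). There were 2, 2 and 4 at E13.5. The E16.5 set held 3, 5 and 4 libraries and the set of P0, the day of birth, 5, 9 and 4. Cells of E12.5 were collected in another buffer than those of later ages, so age and collection cannot be told apart for that step.

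EED is a core subunit of Polycomb repressive complex 2, which keeps many developmental genes silent. AMPA and kainate receptors are tetrameric glutamate-gated channels, NMDA receptors are channels that need the obligatory subunit encoded by Grin1, and metabotropic receptors and GABA-B receptors signal through G proteins. GABA-A receptors are pentameric chloride channels, and the subunits of all these families change as neurons mature, with some of them, such as the glutamate receptor gene Grm3, also known from glial cells.

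Libraries held 865832 to 2359317 reads in genes at E12.5 and 2784557 to 7249098 at later ages. Levels are given as CPM, counts per 1000000 reads in genes, scaled by the trimmed mean of M-values (TMM), and differences as log2 fold changes ± standard error from the quasi-likelihood test of edgeR, with Benjamini-Hochberg adjustment over all genes tested and a threshold of 0.05. Eed itself was at 26.4 to 34.0 CPM in control-MADM at P0, 11.3 to 19.6 CPM in Eed-MADM and 9.01 to 16.1 CPM in cKO-Eed-MADM, and it was lower by test in both mutants (adjusted p = 0.013 and 0.00038). Gene counts do not separate the floxed exons from the rest of the transcript. Each of 12 maturing neuron markers and 11 newborn neuron markers was read in every group at E16.5 and P0. A read in any library of a group was enough for this, so it does not measure cortical identity or purity.

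At P0, receptor subunit transcripts were mostly higher in green cells of cKO-Eed-MADM than of control-MADM. Of 30 genes tested, 14 were higher and 2 were lower, 53.3% in all, where 24.2% of all 14161 genes were called. Of all genes, 14.2% were called higher and 10% lower. The median log2 fold change of the 30 genes was 1.11, against -0.01 over all genes, and 26 of 30 differences were positive. The CPM ranges of both groups did not overlap, with cKO-Eed-MADM higher, for 13 of the 30 genes, as for 10.3% of all genes, and with cKO-Eed-MADM lower for 1, as for 7.37%. Grm8, a metabotropic receptor at 0.0 to 1.85 CPM in control-MADM at P0, was under the count limit of the test at E16.5 and P0. In bulk samples, fewer cells of a type and less RNA per cell cannot be told apart.

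**Figure D1:**
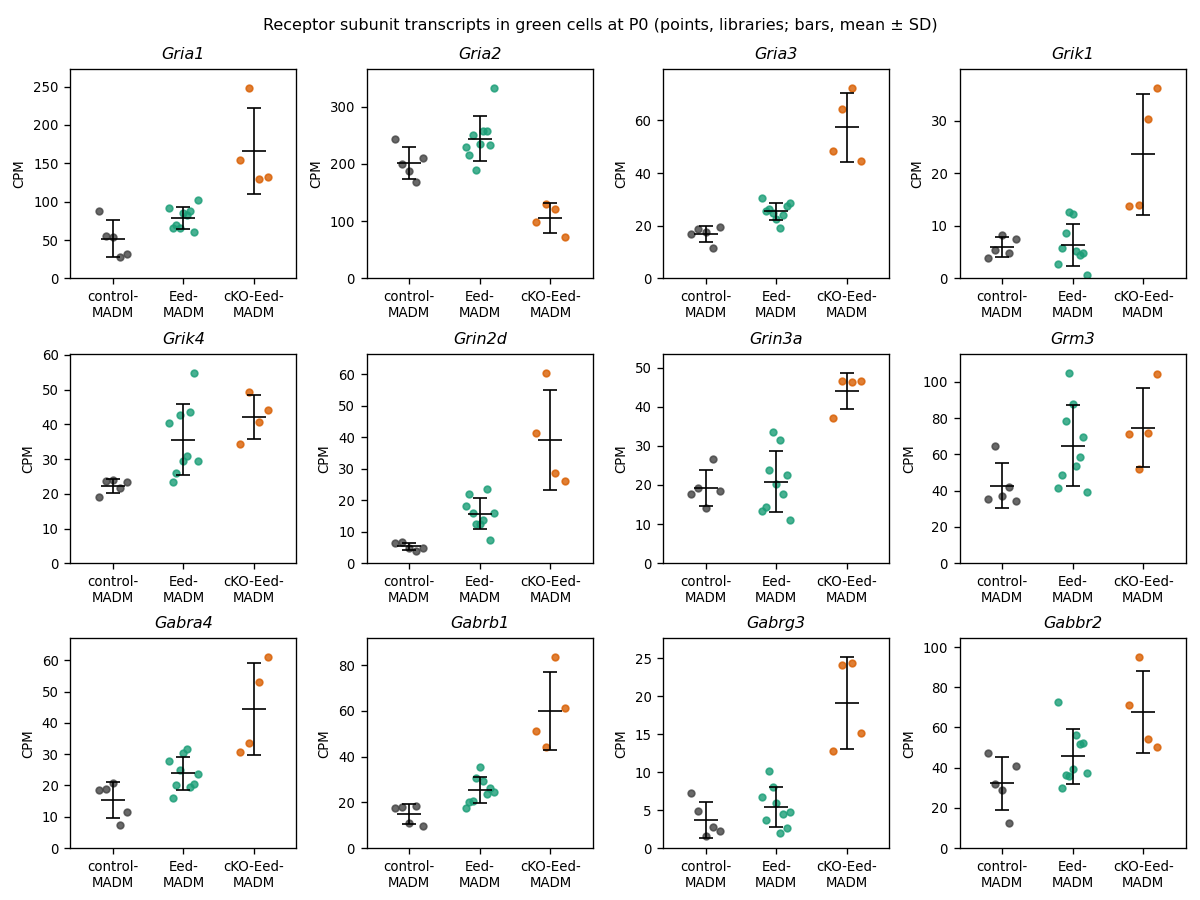
CPM of 12 receptor subunit genes at P0, with a panel for each gene and its own vertical axis from 0; points are libraries of control-MADM (n = 5), Eed-MADM (n = 9) and cKO-Eed-MADM (n = 4), and bars give mean ± SD. In 10 of the 12 panels all cKO-Eed-MADM points lie above all control-MADM points, Gria2 lies below them, and the Grm3 points overlap.

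Of the AMPA receptor subunits 3 were higher and 1 was lower. Gria1, a main subunit of calcium-permeable and plasticity-related AMPA receptors, was at 28.5, 32.2, 54.0, 55.2 and 88.3 CPM in the 5 control-MADM libraries and at 130, 133, 154 and 248 CPM in the 4 cKO-Eed-MADM libraries. The groups did not overlap, and the difference was 1.70 ± 0.26 (adjusted p = 2.9e-05). Gria3, an X-linked AMPA subunit, was at 11.4, 17, 17.7, 18.8 and 19.4 CPM in control-MADM and at 44.5, 48.4, 64.2 and 72.3 CPM in cKO-Eed-MADM. Every cKO-Eed-MADM library was above every control-MADM library (1.78 ± 0.21, adjusted p = 9.5e-07). Gria2, whose edited product makes AMPA receptors impermeable to calcium, went the other way. It was at 169, 187, 199, 211 and 243 CPM in control-MADM and at 72.3, 99.1, 122 and 130 CPM in cKO-Eed-MADM. All 4 cKO-Eed-MADM libraries were below all control-MADM libraries (-0.92 ± 0.17, adjusted p = 0.00036). Gria4 was higher as well (1.33 ± 0.37, adjusted p = 0.011), with ranges that overlapped.

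The share of Gria2 in the summed CPM of the 4 AMPA subunit genes was 67.3% to 79.0% in the control-MADM libraries at P0, with a median of 71.0%. In Eed-MADM it was 64.0% to 70.5%, with a median of 68.2%, and in cKO-Eed-MADM it was 27.9% to 34.4%, with a median of 29.5%. At E16.5 the shares were 65.0% to 82.5%, 62.6% to 75.2% and 46.6% to 61.3% in the same order. Grin2d held 2.53% to 3.88% of the summed CPM of the 4 GluN2 genes in control-MADM at P0, 3.11% to 12.9% in Eed-MADM and 13.4% to 19.2% in cKO-Eed-MADM. Gabra2 held 48.5% to 72.2%, 32.8% to 65.7% and 14.3% to 30.1% of the summed CPM of Gabra2 to Gabra5 in the same order. These shares are a description of the levels above, and they are not per length of transcript.

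**Figure D2:**
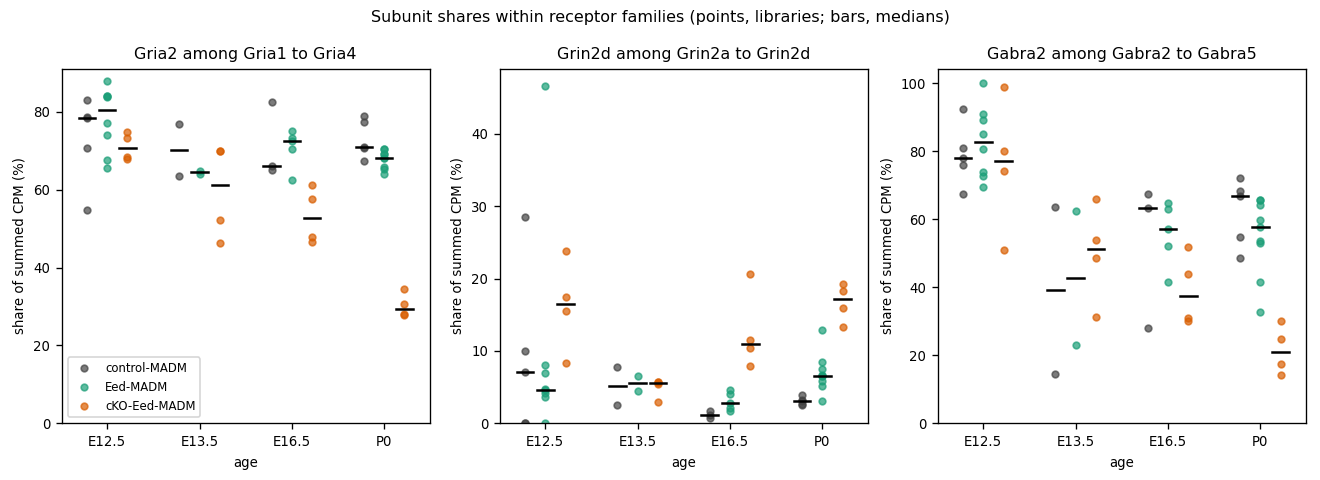
Share of the summed CPM of a receptor family held by Gria2 (of Gria1 to Gria4), Grin2d (of Grin2a to Grin2d) and Gabra2 (of Gabra2 to Gabra5), in percent, by age; points are libraries of the 3 paradigms and bars are medians. At P0 the Gria2 share of cKO-Eed-MADM lies at 27.9% to 34.4% and all other libraries of that age lie at 64.0% or more.

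Of the kainate receptor subunits 2 of 5 were higher at P0. Grik4, which encodes a high-affinity kainate subunit, was at 19.0, 21.7, 23.3, 23.6 and 24.0 CPM in control-MADM and at 34.5, 40.6, 44.2 and 49.4 CPM in cKO-Eed-MADM. Without overlap, the difference was 0.93 ± 0.23 (adjusted p = 0.0041). Grik1, a low-affinity subunit, was at 3.87, 4.85, 5.36, 7.58 and 8.27 CPM in control-MADM and at 13.7, 14.1, 30.4 and 36.2 CPM in cKO-Eed-MADM. These groups did not overlap either (1.98 ± 0.50, adjusted p = 0.0053), though the cKO-Eed-MADM libraries fell into a lower and a higher pair. Grik5, the kainate gene with the highest level per length, differed by -0.33 ± 0.16 (adjusted p = 0.14).

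Among NMDA receptor subunits, Grin2d and Grin3a were higher at P0, and Grin1 and Grin2b did not pass the test. Grin2d, which encodes the GluN2 subunit of slow-closing receptors typical of early development and of interneurons, was at 3.80, 4.73, 4.89, 6.39 and 6.79 CPM in control-MADM and at 26.0, 28.6, 41.3 and 60.6 CPM in cKO-Eed-MADM. The groups lay far apart, with the largest log2 fold change of the 30 genes tested at this age (2.88 ± 0.33, adjusted p = 6.2e-07). Grin3a, a subunit that lowers calcium entry in young synapses, was at 14, 17.7, 18.5, 19.1 and 26.6 CPM in control-MADM and at 37.2, 46.2, 46.5 and 46.5 CPM in cKO-Eed-MADM. No cKO-Eed-MADM library was as low as a control-MADM library (1.21 ± 0.28, adjusted p = 0.0028). Grin1, the obligatory subunit, was at 31, 58.2, 61.5, 73.6 and 95.8 CPM in control-MADM and at 67.0, 69.4, 84.9 and 127 CPM in cKO-Eed-MADM. The ranges overlapped (0.46 ± 0.27, adjusted p = 0.24), and Grin2b, the GluN2 gene with the most reads, differed by 0.11 ± 0.22 (adjusted p = 0.76). Grin1 shares exons with the antisense gene Grin1os, and its unstranded count holds 71.7% of the reads summed over the counts of both strands. For Grin2d, beside Gm45441, this share was 86.4%.

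Of the metabotropic glutamate receptors only Grm3 was called at P0 among the 5 tested. Grm3, a receptor that lowers cyclic AMP and is found in neurons and astrocytes, was at 34.5, 35.3, 37.3, 41.8 and 64.5 CPM in control-MADM and at 51.9, 71.1, 71.6 and 104 CPM in cKO-Eed-MADM. The highest control-MADM library lay above the lowest cKO-Eed-MADM library (0.82 ± 0.26, adjusted p = 0.024). Grm5, the phospholipase-coupled receptor of young cortical neurons, was at 9.61, 20.9, 23.4, 28.1 and 29.5 CPM in control-MADM and at 29.6, 31.2, 37.1 and 45.6 CPM in cKO-Eed-MADM. The CPM ranges touched without overlap, and the test was not passed (0.70 ± 0.26, adjusted p = 0.056). Without the control-MADM library of replicate 1, 4 or 6, or without replicate 4 of cKO-Eed-MADM, the call of Grm3 was lost, with log2 fold changes of 0.76, 0.77, 0.75 and 0.63 in that order.

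Among the 8 GABA-A receptor subunits, the largest family of the list, 5 were higher and 1 was lower at P0. Gabrb1, a beta subunit, was at 9.44, 10.8, 17.5, 18.0 and 18.6 CPM in control-MADM and at 44.3, 51.3, 61.3 and 83.4 CPM in cKO-Eed-MADM. The groups did not overlap (2.03 ± 0.26, adjusted p = 2.7e-06). Gabra4, an alpha subunit of later, extrasynaptic receptors, was at 7.38, 11.6, 18.5, 18.9 and 20.9 CPM in control-MADM and at 30.9, 33.5, 53.0 and 61.0 CPM in cKO-Eed-MADM. Again no library of one group reached the other (1.54 ± 0.28, adjusted p = 0.00026). Gabrg3, a gamma subunit on chromosome 7, was at 1.52, 2.19, 2.74, 4.82 and 7.24 CPM in control-MADM and at 12.8, 15.1, 24.2 and 24.4 CPM in cKO-Eed-MADM. The groups were apart (2.37 ± 0.48, adjusted p = 0.00076), at levels that rest on 105 and 348 reads in all.

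Gabrg1, a gamma subunit also known from glia, was at 4.38, 5.57, 6.90, 12 and 17.1 CPM in control-MADM and at 9.01, 24.0, 40.1 and 41.8 CPM in cKO-Eed-MADM. The lowest cKO-Eed-MADM library lay within the control-MADM range (1.66 ± 0.54, adjusted p = 0.029). Gabra2, an alpha subunit of the embryonic and early postnatal cortex, had a mean of 46.1 ± 13.6 CPM (SD, n = 5) in control-MADM and of 22.4 ± 12.7 CPM (SD, n = 4) in cKO-Eed-MADM. It was called lower, with overlapping ranges (-1.05 ± 0.38, adjusted p = 0.049). Gabra3, X-linked, was called higher (1.62 ± 0.52, adjusted p = 0.024). The call of Gabra2 was lost on leaving out any of 7 of the 9 libraries compared, all but replicate 2 of cKO-Eed-MADM and replicate 5 of control-MADM, with values from -1.46 to -0.83 over all 9. Gabrg1 lost its call without replicate 1 or 4 of cKO-Eed-MADM or replicate 1, 4 or 6 of control-MADM (1.44 to 1.57), Gabra3 without replicate 2 of cKO-Eed-MADM or replicate 4 of control-MADM (1.26 and 1.48), and Gria4 without replicate 3 of cKO-Eed-MADM (1.06). Of the 16 calls, 11 held on leaving out each library in turn, those of Gria1, Gria2, Gria3, Grik1, Grik4, Grin2d, Grin3a, Gabra4, Gabrb1, Gabrg3 and Gabbr2.

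Of the GABA-B receptor subunits, Gabbr2, the subunit that couples to the G protein, was at 12.7, 28.7, 32.0, 40.6 and 47.5 CPM in control-MADM and at 50.3, 54.3, 71.3 and 94.8 CPM in cKO-Eed-MADM. The groups did not overlap (1.08 ± 0.29, adjusted p = 0.0081). Gabbr1, the GABA-binding subunit, was at 188, 265, 282, 292 and 304 CPM and at 204, 211, 224 and 242 CPM in the same order. Its difference of -0.26 ± 0.13 did not pass the test (adjusted p = 0.17).

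**Figure D3:**
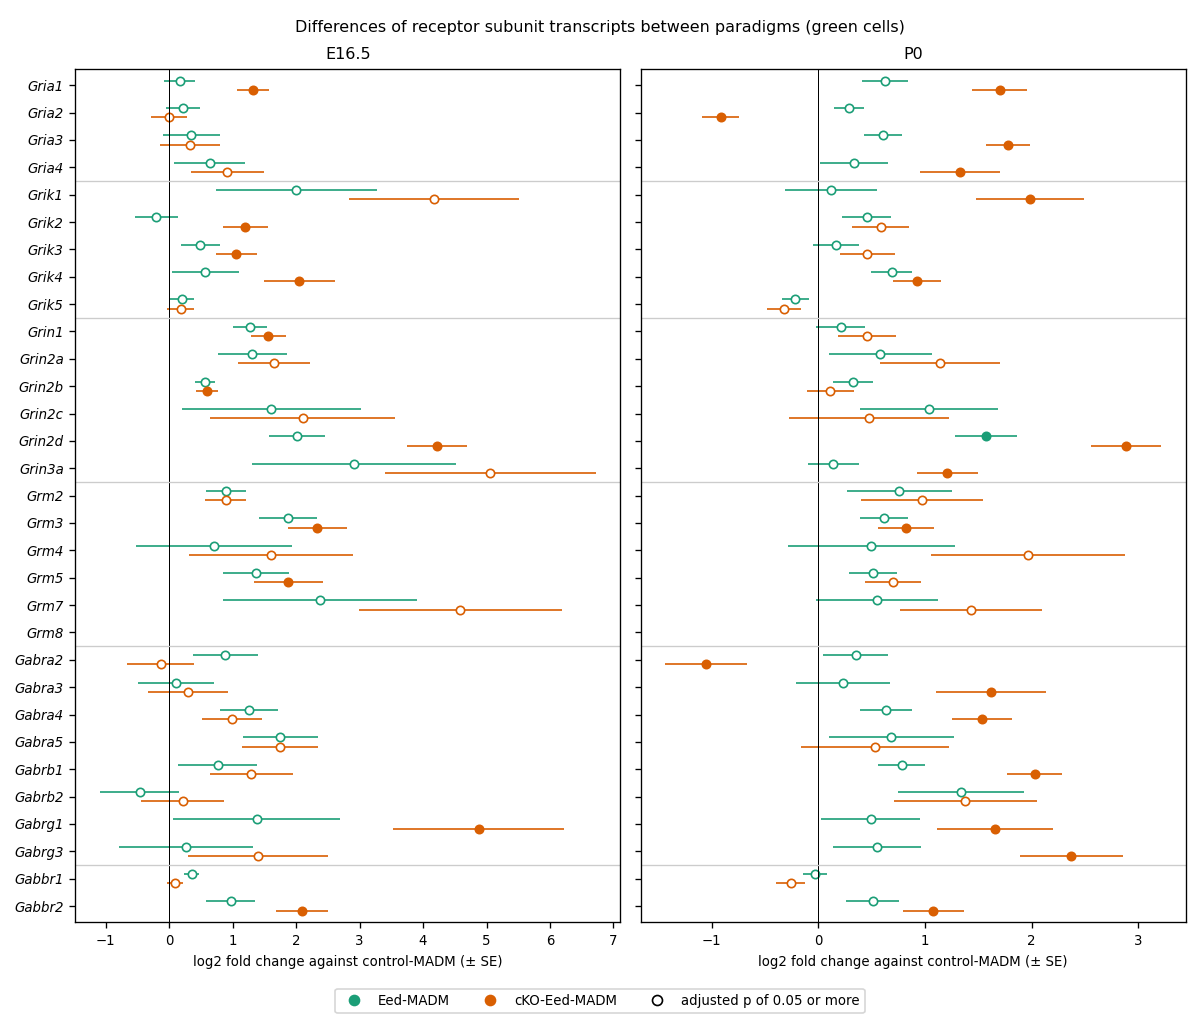
Log2 fold changes against control-MADM (± SE, edgeR) of each tested gene at E16.5 (left) and P0 (right), for Eed-MADM and cKO-Eed-MADM; filled points have an adjusted p under 0.05, and gray lines separate the receptor families. At P0 Gria2 and Gabra2 are the filled points below 0, and Grin2d is the filled Eed-MADM point.

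Genes of 4 GABA-A subunits lie side by side within 1.40 megabases of chromosome 5, and they were called in both directions, where the lower call is that of Gabra2 alone. Gabrg1 (chr5:70751047-70842617), Gabra2 (chr5:70957597-71095849) and Gabra4 (chr5:71569749-71658308) lie on the minus strand and Gabrb1 (chr5:71658113-72149037) on the plus strand of GRCm38. At P0 Gabrg1, Gabra4 and Gabrb1 were higher in cKO-Eed-MADM, and Gabra2, which lies between Gabrg1 and Gabra4, was lower. The call of Gabra2 held in 2 of 7 alternatives, and it was lost with the size factors of DESeq2 (adjusted p = 0.055), without a filter on low counts (adjusted p = 0.10), with all green libraries (adjusted p = 0.060), with only the 2 groups compared (adjusted p = 0.052) and with the replicate number as a block (adjusted p = 0.16). Gabra4 and Gabrb1 overlap head to head by 196 bases on opposite strands. Their unstranded counts hold 98.5% and 98.3% of the reads summed over the counts of both strands. For 23 of the 31 genes RefSeq (GRCm38.p6, the assembly of mm10) gives a promoter window of 250 bases before and 50 after the start, and Gria1, Gria3, Grik1, Grin2a, Grin2b, Grin3a, Grm4 and Grm5 had no entry. The dinucleotide CG, which reads the same on both strands, occurred in a median of 18 places per window in these 23 genes and in 8 places over 27025 genes, taking the window with the most CG for each gene. At least 10 CG were found in 21 of the 23 windows and in 45.8% of all windows. The stretches before the start of 3 genes of the cluster and of Gria2 are shown 5′ to 3′ on the minus strand, with CG in capitals, because they belong to genes with opposite signs of the difference at P0. The stretch of Gabra4 stops before an annotated exon of Gabrb1.
Gabrg1 (chr5:70842618-70842867): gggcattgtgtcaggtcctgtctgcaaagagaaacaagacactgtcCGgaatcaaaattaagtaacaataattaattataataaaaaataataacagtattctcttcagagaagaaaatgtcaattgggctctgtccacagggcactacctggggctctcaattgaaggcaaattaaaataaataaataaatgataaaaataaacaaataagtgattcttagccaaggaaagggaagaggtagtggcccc
Gabra2 (chr5:71095850-71096099): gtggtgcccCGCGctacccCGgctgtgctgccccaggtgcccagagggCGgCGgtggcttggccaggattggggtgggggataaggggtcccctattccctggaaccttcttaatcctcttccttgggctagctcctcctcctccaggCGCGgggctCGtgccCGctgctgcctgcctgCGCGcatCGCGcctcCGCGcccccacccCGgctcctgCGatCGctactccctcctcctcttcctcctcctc
Gabra4 (chr5:71658364-71658558): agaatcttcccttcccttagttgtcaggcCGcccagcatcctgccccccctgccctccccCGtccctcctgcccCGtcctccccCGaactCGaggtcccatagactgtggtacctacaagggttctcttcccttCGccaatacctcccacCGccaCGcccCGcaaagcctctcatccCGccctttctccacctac
Gria2 (chr3:80802836-80803085): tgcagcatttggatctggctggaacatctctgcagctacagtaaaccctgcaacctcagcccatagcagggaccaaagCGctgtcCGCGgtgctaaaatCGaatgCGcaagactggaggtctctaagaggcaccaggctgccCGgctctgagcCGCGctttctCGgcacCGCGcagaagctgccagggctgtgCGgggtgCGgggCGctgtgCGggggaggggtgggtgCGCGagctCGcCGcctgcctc
The windows of the lower genes Gabra2 and Gria2 held 25 and 26 CG, and those of the higher genes Gabrg1, Gabra4 and Gabrb1 held 3, 12 and 25. No binding or methylation was measured in these libraries, and the letters alone describe no regulation.

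In green cells of Eed-MADM at P0, which are Eed-/- within heterozygous tissue, 1 of 30 genes was called against control-MADM, where 1.75% of all genes were called, 1.52% higher and 0.233% lower. This was Grin2d, which lies on chromosome 7 as the floxed Eed allele does, at 7.37 to 23.5 CPM with a median of 16 CPM in the 9 Eed-MADM libraries. Every Eed-MADM library lay above the highest control-MADM library at 6.79 CPM (1.57 ± 0.29, adjusted p = 0.0040). Such a gap, with Eed-MADM higher, was found for 1 of the 30 genes and for 0.854% of all genes, and the opposite gap for 0 and for 0.537%. Without control-MADM replicate 1, 3 genes were called, and DESeq2 called 4. No share over all genes is given for these fits, so the counts are not set against a background. The other subunits named at P0 had smaller differences, with Gria3 at 0.60 ± 0.18 (adjusted p = 0.085), Gabrb1 at 0.78 ± 0.22 (adjusted p = 0.068), Gria1 at 0.62 ± 0.22 (adjusted p = 0.14) and Gria2 at 0.29 ± 0.14 (adjusted p = 0.30). In all, 28 of 30 differences were positive, with a median of 0.51 against 0.02 over all genes, and 9 had an unadjusted p under 0.05, 30.0% where 17.2% of all genes did.

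Compared directly at P0, cKO-Eed-MADM and Eed-MADM differed in 12 of 30 genes, with 10 higher and 2 lower in cKO-Eed-MADM, where 19.5% of all genes were called, 11.2% higher and 8.26% lower. Gria2 was at 189 to 333 CPM with a median of 234 CPM in Eed-MADM, all above the highest cKO-Eed-MADM library at 130 CPM (-1.20 ± 0.16, adjusted p = 8.5e-06). Gria3 was at 19.3 to 30.5 CPM in Eed-MADM, all below cKO-Eed-MADM (1.18 ± 0.18, adjusted p = 3.9e-05). Grin2d was higher still in cKO-Eed-MADM than in Eed-MADM (1.31 ± 0.27, adjusted p = 0.0010), and its highest Eed-MADM library at 23.5 CPM lay under the lowest cKO-Eed-MADM library at 26.0 CPM. Gabrb1 (1.25 ± 0.22), Gabrg3 (1.82 ± 0.40), Grik1 (1.87 ± 0.43) and Grin3a (1.07 ± 0.25) were other genes whose ranges did not overlap, as was Gria1 (1.07 ± 0.22). Non-overlapping ranges with cKO-Eed-MADM higher were found for 7 of the 30 genes and for 6.11% of all genes, and with cKO-Eed-MADM lower for 1 and for 4.41%. For Grik4 (0.24 ± 0.20, adjusted p = 0.44) and Grm3 (0.20 ± 0.23, adjusted p = 0.60) the difference between both mutants did not pass the test. The calls of Gria4, Gabra3 and Gabra4 were lost in 3, 2 and 1 of 9 fits that left out a library. No Eed-MADM library of P0 was left out in these fits. With the replicate number as a block 8 genes were called, not all of them among the 12, and Gria4, Gabra2, Gabra3, Gabra4 and Gabrg3 lost their calls.

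At E16.5, 11 of 30 genes were higher and 0 were lower in cKO-Eed-MADM than in control-MADM, 36.7% where 8.58% of all 13359 genes were called. Of all genes, 6.16% were called higher and 2.42% lower. The median of the 30 genes was 1.36, against 0.00 over all genes. Grin2d was at 1.48, 2.23 and 2.43 CPM in the 3 control-MADM libraries and at 24.8, 35.7, 37.5 and 52.5 CPM in cKO-Eed-MADM (4.22 ± 0.47, adjusted p = 1.2e-05). Grin1 was at 19.8, 21.4 and 33.7 CPM in control-MADM and at 56.9, 59.1, 81.4 and 97.0 CPM in cKO-Eed-MADM (1.56 ± 0.28, adjusted p = 0.0010). Neither gene overlapped between the groups. Gria1 was at 34.5, 39.9 and 66.3 CPM in control-MADM and at 90.6, 103, 116 and 157 CPM in cKO-Eed-MADM (1.32 ± 0.25, adjusted p = 0.0019). Grm3 was at 2.23, 3.53 and 7.98 CPM in control-MADM and at 14.4, 20.4, 21.1 and 38.7 CPM in cKO-Eed-MADM (2.34 ± 0.47, adjusted p = 0.0028). Gabbr2 was at 7.51, 10.1 and 14.3 CPM in control-MADM and at 31.5, 38.0, 39.1 and 73.4 CPM in cKO-Eed-MADM (2.09 ± 0.41, adjusted p = 0.0025). Every cKO-Eed-MADM library was above every control-MADM library for these 3 genes too. Gria2, lower at P0, differed by -0.01 ± 0.28 at E16.5 (adjusted p = 0.99), and Gria3, higher at P0, by 0.33 ± 0.47 (adjusted p = 0.78).

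The ranges of 12 of the 30 genes did not overlap at E16.5 with cKO-Eed-MADM higher, as for 11.4% of all genes, and 0 were lower without overlap, against 8.81% of all genes. The calls of Gria1, Grin1, Grin2d, Grm3 and Gabbr2 held on leaving out each of the 12 libraries of the age in turn, and those of Grik2, Grik3, Grik4, Grin2b, Grm5 and Gabrg1 did not. Without control-MADM replicate 3 all 6 calls were lost, with a highest adjusted p of 0.22 for Grik2. Grik2 was also lost without control-MADM replicate 1 or 2, cKO-Eed-MADM replicate 1, 3 or 4, or Eed-MADM replicate 2 or 4, with log2 fold changes from 0.91 to 1.44. Grik3 was also lost without control-MADM replicate 1 or 2, cKO-Eed-MADM replicate 1, 2 or 4, or Eed-MADM replicate 2 (0.74 to 1.25). Grik4 was also lost without control-MADM replicate 1 or 2 or cKO-Eed-MADM replicate 2 or 4 (1.79 to 2.29), and Grin2b without control-MADM replicate 1 or 2 or cKO-Eed-MADM replicate 1, 3 or 4 (0.47 to 0.68). Grm5 was also lost without control-MADM replicate 2 or cKO-Eed-MADM replicate 1, 3 or 4 (1.53 to 1.86), and Gabrg1 without control-MADM replicate 2. With 11 genes called on all libraries, 5 were called without control-MADM replicate 2 or 3, and 7 were called without control-MADM replicate 1 or without cKO-Eed-MADM replicate 3 or 4. Gabrg1 had 3 reads in all in control-MADM at E16.5, and was at 1.88, 5.98, 6.15 and 9.76 CPM in cKO-Eed-MADM, so that no fold is given. It passed the count limit of the test only through cKO-Eed-MADM, the group where it is high. It is among the 11 genes called and the 12 without overlap. Grin3a, not called but also among these 12, had almost no reads in control-MADM at E16.5 either, as given below for the step to P0. Grm5 was at 2.87, 5.01 and 10.2 CPM in control-MADM and at 10.8, 22.9, 25.6 and 30.1 CPM in cKO-Eed-MADM. Grik4 was at 4.85, 5.28 and 7.83 CPM in control-MADM and at 14.3, 17.3, 30.3 and 37.5 CPM in cKO-Eed-MADM. Both were apart between the groups.

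Eed-MADM differed from control-MADM at E16.5 in 0 of 30 genes by edgeR, where 0.255% of all genes were called, and in 4 genes by DESeq2. An unadjusted p under 0.05 was found for 11 of 30 genes, 36.7% where 10.5% of all genes had one, and 28 of 30 differences were positive, with a median of 0.82 against 0.01 over all genes. The lowest adjusted p belonged to Grin1, at 36.2, 64.1, 66.2, 68.1 and 69.4 CPM in Eed-MADM (1.28 ± 0.27, adjusted p = 0.055). Grin2d was at 4.97, 5.77, 6.74, 11.5 and 11.9 CPM in Eed-MADM (2.02 ± 0.44, adjusted p = 0.062). Both genes lay above all 3 control-MADM libraries in all 5 Eed-MADM libraries, as did Gabbr1, Grin2b and Grm3. These are 5 of the 30 genes, where 3.86% of all genes had such a gap, and 0 had the opposite gap, which 3.74% of all genes had. Without Eed-MADM replicate 1, 2 genes were called, and without Eed-MADM replicate 5 or cKO-Eed-MADM replicate 1 or 4, 1 gene was called. For these fits and for DESeq2 no share over all genes is given. Relative to Eed-MADM, 5 genes were higher and 0 lower in cKO-Eed-MADM at E16.5, where 7.04% of all genes were called, 4.45% higher and 2.58% lower. They were Gria1 (1.16 ± 0.21), Grik2 (1.40 ± 0.31), Grin2d (2.20 ± 0.34), Gabbr2 (1.12 ± 0.33) and Gabrg1. The ranges of these 5 genes did not overlap, as for 5.49% of all genes, and 0 of the 30 genes lay lower without overlap, where 3.77% of all genes did. The calls of Gria1, Grik2 and Grin2d held on leaving out each library of the age in turn. Gabbr2 lost its call in 10 of 12 such fits, all but those without Eed-MADM replicate 2 or cKO-Eed-MADM replicate 1, with values from 0.79 to 1.29 and adjusted p up to 0.23, and also with only the 2 groups compared (adjusted p = 0.062). Gabrg1 lost its call without Eed-MADM replicate 2, 4 or 5 or cKO-Eed-MADM replicate 4, 4 of the 10 fits in which it was tested (adjusted p up to 0.083). Without Eed-MADM replicate 4 or cKO-Eed-MADM replicate 2, 3 or 4, 3 genes were called in that comparison. Gabrg1 had 13 reads in all in Eed-MADM at that age, so that no fold is given. It passed the count limit only through cKO-Eed-MADM, the group where it is high.

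At E12.5 none of the 31 genes was called in any of the 3 comparisons, with 0 of 18100 genes called in all (0%), and an unadjusted p under 0.05 for 1, 2 and 3 of the 31 genes in cKO-Eed-MADM against control-MADM, Eed-MADM against control-MADM and cKO-Eed-MADM against Eed-MADM, where 7.14%, 3.81% and 7.22% of all genes had one. DESeq2 called 0 of the 31 genes as well. At E13.5, 22 genes passed the count limit and 0 were called by edgeR, where 0.0372%, 0% and 0.0223% of all genes were called in the same order, and 4, 2 and 3 had an unadjusted p under 0.05, 18.2%, 9.09% and 13.6% where 10.3%, 6.13% and 5.00% of all genes had one. DESeq2 called 1, 0 and 0, and edgeR called 1 in cKO-Eed-MADM against control-MADM without control-MADM replicate 3. Shares over all genes are those of edgeR on all libraries used, and none is given for the other fits. The E13.5 comparisons rest on 2 libraries each of control-MADM and Eed-MADM. Gria1 was at 11.2 and 17 CPM in control-MADM at E13.5 and at 26.2, 36.0, 36.4 and 41.7 CPM in cKO-Eed-MADM, a difference of 1.30 ± 0.49 that did not pass the test (adjusted p = 0.36).

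Across age in control-MADM, a part of the receptor genes rose in each step from E13.5 to P0. From E13.5 to E16.5, 11 of 30 genes rose and 1 fell, where 15.8% of all 13926 genes were called, 8.44% upward and 7.32% downward. Grin2b rose from 15.4 and 21.9 CPM to 140, 179 and 184 CPM (3.14 ± 0.36, adjusted p = 2.0e-07). Gria1 (1.70 ± 0.40), Gria2 (1.60 ± 0.41), Gria3 (2.63 ± 0.68) and Grik3 (2.07 ± 0.44) rose in the same step. Grik1 fell from 12.3 and 0.158 CPM to 0.0, 0.0 and 0.739 CPM, a call that was lost without E16.5 control-MADM replicate 2 or 3 and turned to 0.81 without E13.5 control-MADM replicate 1. Without that E13.5 library 3 of the 30 genes were called, and without E16.5 control-MADM replicate 1, 6 were called. The calls of Grin2b and Grik3 held on leaving out each library in turn. Without E13.5 control-MADM replicate 1, Gria1 (adjusted p = 0.11), Gria2 (adjusted p = 0.24) and Gria3 (adjusted p = 0.18) lost their calls, and Gria3 also lost it without E16.5 control-MADM replicate 1. Over the libraries left out the log2 fold change was 1.37 to 2.02 for Gria1, 1.09 to 2.38 for Gria2 and 1.69 to 9.38 for Gria3, which had 0 reads in 1 of the 2 E13.5 libraries.

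From E16.5 to P0 in control-MADM, 10 of 30 genes rose and 0 fell, where 14.1% of all genes were called, 8.31% upward and 5.77% downward. Grm3 rose from 2.23 to 7.98 CPM at E16.5 to 34.5 to 64.5 CPM at P0 (3.16 ± 0.57, adjusted p = 0.00017). Grin1 rose from 19.8 to 33.7 CPM to 31 to 95.8 CPM (1.35 ± 0.34, adjusted p = 0.0053), and Grm5 from 2.87 to 10.2 CPM to 9.61 to 29.5 CPM (1.86 ± 0.57, adjusted p = 0.022). The ages overlapped slightly for Grin1 and Grm5 and not for Grm3. Grin3a had 2 reads in all in control-MADM at E16.5 and 531 reads at P0, Gabrg1 had 3 and 248, and Grik1, which was called too, had 5 and 170, so that no fold is given. Grik4, Grik5, Grin2d and Gabbr2 rose as well, with log2 fold changes of 1.89, 0.63, 1.40 and 1.59. Without E16.5 control-MADM replicate 2 or 3, 5 genes were called, and Grik1, Grik5, Grin2d, Grm5 and Gabbr2 were not. Grik5 was also lost without P0 control-MADM replicate 2 or 6 (0.51 to 0.74 over all libraries left out), and Grin2d without E16.5 replicate 1 or P0 replicate 1 or 2 of control-MADM (1.18 to 1.55).

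**Figure D4:**
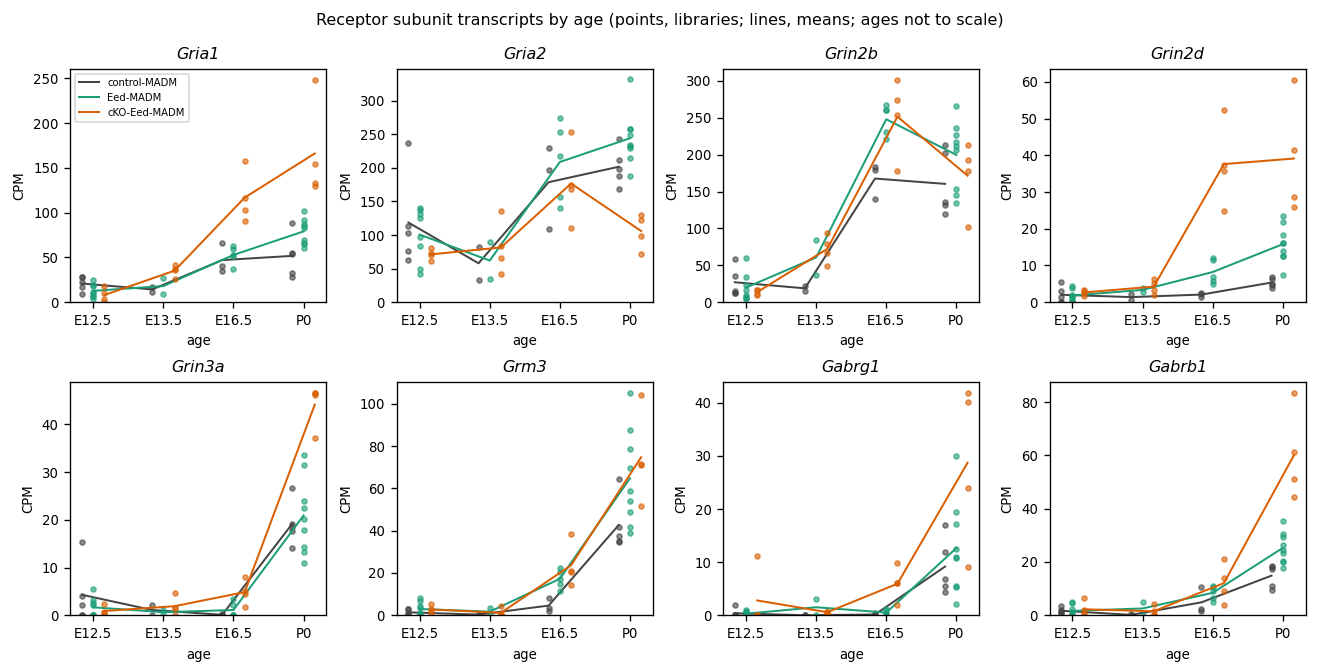
CPM of 8 receptor subunit genes from E12.5 to P0, with a panel for each gene, its own vertical axis from 0 and ages at equal spacing; points are libraries of the 3 paradigms and lines join group means. Grin2d of cKO-Eed-MADM is at 24.8 to 52.5 CPM at E16.5 and at 26.0 to 60.6 CPM at P0, and Grin3a, Grm3, Gabrg1 and Gabrb1 have their highest means at P0 in every paradigm.

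In cKO-Eed-MADM 19 of 30 genes rose and 0 fell from E13.5 to E16.5, where 17.5% of all genes were called, 9.94% upward and 7.6% downward. From E16.5 to P0, 7 rose and 0 fell, where 17.7% of all genes were called, 9.58% upward and 8.14% downward. In Eed-MADM 12 rose and 0 fell in the earlier step, where 19.3% of all genes were called, 9.99% upward and 9.28% downward. In the later step 9 rose and 0 fell, where 21% of all genes were called, 12.1% upward and 8.91% downward. At E13.5 cKO-Eed-MADM had 4 libraries and each other paradigm 2, so a like rise from E13.5 is called more readily in cKO-Eed-MADM. Whether the step from E13.5 to E16.5 differed between paradigms was not tested. Grin2d rose by 3.13 ± 0.41 in cKO-Eed-MADM from E13.5 to E16.5 (adjusted p = 8.4e-07) and differed by 0.08 ± 0.37 from E16.5 to P0 (adjusted p = 0.92). Gabrb1 rose in both steps in cKO-Eed-MADM (2.98 ± 0.68 and 2.34 ± 0.59), and Gria3 rose from E16.5 to P0 (1.49 ± 0.45, adjusted p = 0.017). Gria2 differed by -0.72 ± 0.30 in that step (adjusted p = 0.092). The difference between paradigms in the change from E16.5 to P0 was tested as an interaction, and 0 of 30 genes was called by edgeR between cKO-Eed-MADM and control-MADM, Eed-MADM and control-MADM, or cKO-Eed-MADM and Eed-MADM, where 1.17%, 0.0215% and 1.61% of all genes were called. An unadjusted p under 0.05 was found for 7, 1 and 6 genes, 23.3%, 3.33% and 20.0% where 11.8%, 10.0% and 12.7% of all genes had one, and DESeq2 called 0 of the 30 genes in each. Without E13.5 Eed-MADM replicate 2, 7 genes rose from E13.5 to E16.5 in Eed-MADM. Without P0 cKO-Eed-MADM replicate 4 or E16.5 cKO-Eed-MADM replicate 3, 4 genes were called from E16.5 to P0 in cKO-Eed-MADM, and without P0 cKO-Eed-MADM replicate 1, 1 gene was called in the difference between cKO-Eed-MADM and Eed-MADM.

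Set beside each other without a test, Grin1 at E16.5 in cKO-Eed-MADM had a mean of 73.6 CPM (SD 19.1, n = 4), and in control-MADM it had 25.0 CPM (SD 7.6, n = 3) at E16.5 and 64.0 CPM (SD 23.6, n = 5) at P0. Grm5 was at 22.4 CPM (SD 8.3, n = 4) in cKO-Eed-MADM at E16.5 and at 22.3 CPM (SD 7.9, n = 5) in control-MADM at P0. Grm3 and Grin3a were at 23.6 and 4.8 CPM in cKO-Eed-MADM at E16.5 and at 42.7 and 19.2 CPM in control-MADM at P0. Per kilobase of exon at P0, the highest levels in control-MADM were those of Grik5 (37.0 CPM per kilobase), Gabbr1 (34.3), Grm3 (14), Gria2 (13) and Gria1 (8.55). In cKO-Eed-MADM they were those of Grik5 (29.3), Gabbr1 (28.3), Gria1 (27.5) and Grm3 (24.5), with Gria2 at 6.81.

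Genes that work with these receptors were called in both directions in cKO-Eed-MADM against control-MADM at P0, where 24.2% of all genes were called, 14.2% higher and 10% lower. Of 16 other receptor subunits 6 were tested, 2 were higher and 0 lower, Grid1 (1.44 ± 0.31) among them. Of 19 auxiliary subunits 17 were tested, 5 were higher and 1 lower. Shisa9, an AMPA receptor partner, was at 12.8 to 19.5 CPM in control-MADM and at 49.7 to 65.1 CPM in cKO-Eed-MADM (1.79 ± 0.25, adjusted p = 8.9e-06). Kctd12, a GABA-B receptor partner, was at 2.11 to 3.37 CPM and at 16.6 to 19.1 CPM in the same order (2.70 ± 0.44), and Gsg1l differed by 1.82 ± 0.34. Cnih2, an AMPA receptor partner, was lower (-1.01 ± 0.24, adjusted p = 0.0032), and it is named beyond the rule as the single gene called lower. Of 22 postsynaptic scaffold genes 3 were higher and 2 lower, with a median of -0.04, and Gphn, the scaffold of inhibitory synapses, was higher (1.07 ± 0.22, adjusted p = 0.00075), as was Dlgap1 (0.97 ± 0.20), while Dlgap4 was lower (-0.70 ± 0.13).

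Markers of other cell types and stages moved in the same comparison, where 14.2% of all genes were called higher and 10% lower at P0. At P0, 5 of 7 astrocyte markers were higher in cKO-Eed-MADM, with a summed level of 1741 to 3421 CPM against 542 to 1591 CPM in control-MADM. All 5 tested microglia markers (130 to 317 CPM against 6.07 to 29.7 CPM) and all 4 tested meningeal markers (88.1 to 222 CPM against 8.41 to 15.0 CPM) were higher as well. Of the newborn neuron markers 7 of 11 were lower (2401 to 5541 CPM against 5818 to 10368 CPM), of dividing cell markers 6 of 7, and of cortical interneuron markers 4 of 10 were lower and 1 was higher (267 to 325 CPM against 406 to 943 CPM). Of maturing neuron markers 2 of 12 were higher and 1 was lower, near the shares over all genes. In Eed-MADM at P0 the astrocyte, microglia and newborn neuron sums were 578 to 1472, 1.28 to 126 and 6533 to 10233 CPM. At E16.5, 7 of 9 tested interneuron markers were higher in cKO-Eed-MADM (329 to 568 CPM against 66.2 to 195 CPM), as were 3 of 6 astrocyte markers (193 to 526 CPM against 87.7 to 138 CPM), 2 of 5 oligodendrocyte lineage markers (45.0 to 298 CPM against 9.46 to 16.54 CPM), 2 of 4 microglia markers (11.1 to 54.9 CPM against 1.54 to 2.22 CPM), 1 of 3 meningeal markers (10.5 to 25.8 CPM against 4.73 to 9.92 CPM), 2 of 10 radial glia markers and 3 of 12 maturing neuron markers (1724 to 2077 CPM against 1395 to 1573 CPM). Lower at E16.5 were 3 of 11 newborn neuron markers (8996 to 10689 CPM against 11984 to 13539 CPM) and 2 of 5 intermediate progenitor markers (252 to 422 CPM against 634 to 802 CPM). Of all genes at E16.5, 6.16% were called higher and 2.42% lower. Apart from radial glia, the ranges of the marker sums at E16.5 did not overlap. Slc32a1, Csf1r and Sox10 were at 0 in all control-MADM libraries of that age. The part of these cell types in the receptor differences was not tested.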

How the data were processed

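RNA of sorted cells was sequenced by Smart-Seq2. The authors aligned reads to mm10 (GRCm38) with STAR, dropped reads aligning to several places and deposited raw read counts per gene for each library, with columns for the unstranded count and each strand. The unstranded counts were used here. The strand columns served only to give the unstranded count of a gene as a share of the sum of both strand counts. The annotation release was not given in those sources, and GENCODE M21 named 53274 of 53379 identifiers. Reads in no gene or in several genes, 13.4% to 40.1% of unique reads, stayed out of library sizes.

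Of 116 libraries, 48 of red and yellow cells were not used, and 13 green libraries fell under the limits of 1000000 unique reads or 60% of all reads. The paper also removed green libraries that correlated poorly with their replicates or had many reads in the deleted part of Eed. Those criteria were not applied here, so such libraries may be among those used. Groups and replicate numbers came from the labels. Libraries are pools of cortices, so p-values measure the spread between pools. Total counts per library limit low genes: the levels of genes under about 1 CPM rest on few reads.

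Each age was fitted over its 3 paradigms with edgeR 4.0.16 (quasi-likelihood test, robust, TMM scaling, R 4.3.3) on genes with a mean count over 1 at E12.5 and over 10 later. Ages E13.5, E16.5 and P0 of all paradigms shared another fit, with interaction terms. Comparisons against the same paradigm share its libraries. The standard error is the log2 fold change over the square root of F. The steps were tested on simulated data, in which 98% of genes changed by 4-fold were called at P0 and 98% at E16.5. At E13.5 50% were called, and at E12.5 5% were. Of genes changed by 2-fold 50% were called at P0 and 29% at E16.5. The simulation gave all genes of an age the same spread and changed genes picked at random, so these shares are not estimates for the receptor genes.

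The 31 genes, the pathway and marker lists and the tests were chosen with earlier results of these data known. Every library's value is given for the gene with the lowest adjusted p of each receptor family in cKO-Eed-MADM against control-MADM at P0, the next 6 genes by adjusted p, the 3 of lowest adjusted p from E16.5 to P0 in control-MADM not yet named, and genes called in Eed-MADM. Up to 3 genes per pathway list were named by adjusted p at P0. The values of 1 gene of these lists are not reported here. Alternatives were DESeq2 1.42.0, edgeR scaled by the size factors of DESeq2, all genes without a count limit, the newer quasi-likelihood method, only the 2 groups compared, all green libraries, a replicate block and leaving out each library of groups of 2 to 5. Deviations from the group mean correlated at -0.30 to 0.34 between libraries with the same replicate number and at -0.31 to 0.33 between those with different numbers. The numbers were taken as names, though so few pairs cannot exclude pairing. No pair of libraries was closer than r = 0.982. Promoter sequences are from RefSeq.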

Additional observations from a re-analysis of the deposited data

Results flagged for a closer look

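The outermost library stood apart from the rest of its group, by Dixon's criterion at the 95% level, in 5 of 75 groups of 4 to 10 libraries tested for the genes named above, where chance gives about 1 in 20. Gria2 was at 332.9 CPM in Eed-MADM replicate 9 at P0, with the next library at 258.0 CPM. Grik1 was at 0.4168 CPM in cKO-Eed-MADM replicate 1 at E16.5, and the other 3 libraries of that group were at 7.22 CPM or more. Grin1 was at 36.15 CPM in Eed-MADM replicate 1 at E16.5, below the next library at 64.09 CPM. Without that library 2 of the 30 genes were called in Eed-MADM against control-MADM at E16.5, and 0 with it. Grin3a was at 37.19 CPM in cKO-Eed-MADM replicate 1 at P0, below the next library at 46.22 CPM and above all control-MADM libraries. Grm3 was at 64.51 CPM in control-MADM replicate 2 at P0, with the next library at 41.76 CPM.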

How the results depend on the processing

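Shares over all genes were given above only for edgeR on all libraries used, so the counts of other fits here have no background beside them. At P0 the count of genes called in cKO-Eed-MADM against control-MADM was 13 to 17 on leaving out each library, against 16 on all, and at E16.5 it was 5 to 13, against 11. In Eed-MADM against control-MADM the ranges were 0 to 2 at E16.5 and 1 to 3 at P0, and in cKO-Eed-MADM against Eed-MADM 3 to 5 and 10 to 12. The Eed-MADM libraries of P0 were never left out, so the ranges at P0 do not cover them. At E13.5 the range was 0 to 1 in cKO-Eed-MADM against control-MADM and 0 in the other comparisons, as in all at E12.5. From E13.5 to E16.5 the ranges were 3 to 12 (control-MADM), 7 to 13 (Eed-MADM) and 16 to 20 (cKO-Eed-MADM), and from E16.5 to P0 they were 5 to 10, 6 to 10 and 4 to 7. For the difference between cKO-Eed-MADM and Eed-MADM in the later step the range was 0 to 1, and for the other differences it was 0. DESeq2 called 1 gene at E13.5 in cKO-Eed-MADM against control-MADM, and in Eed-MADM against control-MADM 4 at E16.5 and 4 at P0. With no filter on low counts the first of these counts was 1, that of Eed-MADM at E16.5 was 3, and the interactions of cKO-Eed-MADM with control-MADM and with Eed-MADM gave 1 and 2. With all green libraries, Eed-MADM against control-MADM gave 1 at E13.5, the step from E13.5 to E16.5 in Eed-MADM gave 1 in place of 12, and the later step gave 3 in cKO-Eed-MADM, 5 in Eed-MADM and 6 in control-MADM. In that setting Gabra2 (-1.39) and Grin2b (-0.49) reversed in control-MADM and Gabbr2 (-0.38) in Eed-MADM from E13.5 to E16.5, and Grik1 in control-MADM went from -7.99 to 0.81 over the libraries left out, reversing without E13.5 replicate 1. The cause was not tested. All 114 calls of single genes held with DESeq2, and 113 held with its size factors in edgeR, where Gabra2 at P0 was lost. Without a filter on low counts 107 of 114 held, with the newer quasi-likelihood method 109 of 114, with only the 2 groups compared 40 of 45, and with all green libraries 65 of 97.

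The replicate block left 85 of 114 calls, with 3 genes in cKO-Eed-MADM against Eed-MADM at E16.5, and 6 from E16.5 to P0 in control-MADM. The replicate numbers were taken as names, and whether they pair the libraries is not known. The count at P0 in cKO-Eed-MADM against control-MADM was 13 with the block. E12.5 libraries are the shallowest, and E13.5 has the fewest.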
